A study of Mus musculus with 88 samples.

Results

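The genes studied here were the 44 genes of the Slc1, Slc3, Slc7, Slc36, Slc38 and Slc43 families, which carry amino acids across cell membranes. They were picked from the 24453 genes of the table by symbol, a family name followed by a number, and the rule was set with earlier results of these data known. There were 7 of Slc1, 2 of Slc3, 16 of Slc7, 5 of Slc36, 11 of Slc38 and 3 of Slc43. Of the 44, 42 encode carriers or their heavy chains, and Slc7a6os and Slc36a1os are genes named for lying on the opposite strand of a carrier gene. For brevity, counts of carriers below include Slc7a6os and Slc36a1os where they were tested. RNA with poly(A) tails came from 10 male mice of the strain C57BL/6NTac, aged 65 to 85 days, and from 9 tissues of each: heart, kidney, liver, lung, spleen and the muscles soleus, tibialis, gastrocnemius and extensor digitorum longus (EDL). In 5 mice Cdh15, the gene of the muscle adhesion protein M-cadherin, was knocked out (KO), and 5 were wild type (WT). All 10 had been fasted for 18 h, so no fed group was compared. The sources used here do not give the part of Cdh15 that is missing in the KO. Each group held 5 libraries, 1 per mouse, except WT kidney and WT spleen with 4, which made 88 libraries.

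Amino acid carriers differ in what they move, in which direction and with which ion. Heteromeric carriers are pairs of a heavy chain from Slc3, which brings the pair to the membrane, and a light chain from Slc7, which moves the amino acid. Slc1 holds sodium-driven carriers of glutamate, aspartate and small neutral amino acids, and Slc38 holds carriers of glutamine and other neutral amino acids. Slc36 includes the proton-coupled carriers Slc36a1 and Slc36a2. Slc43 holds facilitative carriers of large neutral amino acids and, as Slc43a3, of purine nucleobases. In fasting, muscle releases alanine and glutamine, liver takes up alanine for glucose and urea synthesis, and kidney recovers filtered amino acids in the proximal tubule.

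Library totals ranged from 8.206 M to 25.144 M expected counts (M, mega), with a median of 19.024 M, and 3 reads, taken as the limit that a count of 0 allows, came to 0.119 to 0.366 CPM, counts scaled to library total alone. Levels are given as RPKM, reads scaled to exon length and library total, which allow genes of different length to be compared. The tests below scale libraries in another way (TMM), so that they and RPKM can order tissues differently, as seen for Slc7a6 and Slc36a2. Cdh15 stood at 0.3715 to 1.429 RPKM in the 20 KO muscle libraries and at 4.109 to 8.106 RPKM in the 20 WT muscle libraries, which did not overlap. One KO soleus library, of mouse 3805666, stood apart: Myh4, the fast IIB myosin heavy chain, was at 15.14 RPKM there and at 4533 to 10860 RPKM in the other soleus libraries. In WT mice Myh4 was at 4693 to 10860 RPKM in soleus, 8860 to 11690 RPKM in tibialis and 11210 to 13700 RPKM in EDL. The other soleus libraries thus held much of this fast fibre transcript, and its part in the soleus comparisons below was not tested. The kidney and liver libraries held markers of their own organs. Summed levels were 32790 to 36950 RPKM for the proximal tubule list in kidney and 56530 to 68410 RPKM for the hepatocyte list in liver.

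The families were expressed unevenly over the tissues. With a median over both genotypes of 1 RPKM or more counted as expressed, lung expressed 29 of the 44 genes, spleen 26, kidney 24, heart 20, EDL and soleus 19 each, tibialis 18, and gastrocnemius and liver 17 each. The genes that passed 1 RPKM in all 9 tissues numbered 9: Slc3a2, Slc7a6os, Slc36a1, Slc38a2, Slc38a7, Slc38a9, Slc38a10, Slc43a2 and Slc43a3. A further 26 passed it in 1 to 8 tissues, and 9 passed it in none, namely Slc1a6, Slc1a7, Slc7a3, Slc7a12, Slc7a14, Slc7a15, Slc36a3, Slc38a8 and Slc38a11. The highest median lay in lung for 13 genes, spleen for 12, kidney for 10, liver for 6, and gastrocnemius, tibialis and heart for 1 each. Summed over all 44 genes, the level followed another order, from 918.3 RPKM in kidney and 825 RPKM in liver through 624.2 in lung and 416.4 in spleen to 190.1 in heart, with the 4 muscles at 210.2 to 236.1 RPKM. Kidney and liver thus expressed fewer of the genes than lung but had a few at very high level, as the heatmap shows. The sums and the tissues of the highest median rest on RPKM and were not redone with the scaling of the tests. In bulk tissue, fewer cells of a type and less RNA per cell cannot be told apart, and this holds for every level below.

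**Figure D1:**
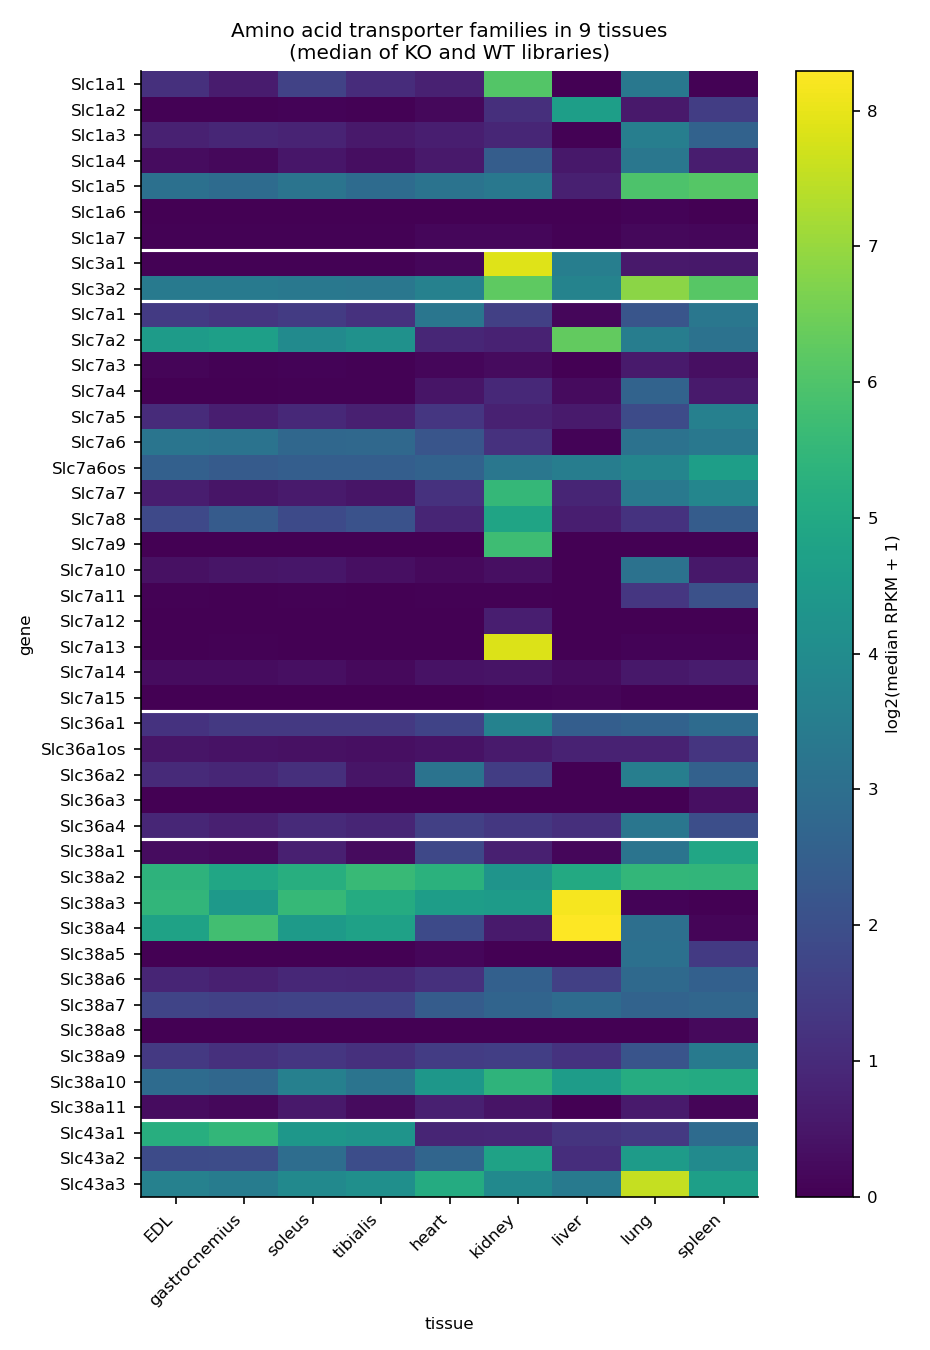
Median level of each of the 44 genes in each of the 9 tissues, over KO and WT libraries together, coloured as log2(RPKM + 1), with tissues as columns and genes as rows grouped by family. The highest levels are few and lie in different tissues: Slc3a1 and Slc7a13 in kidney, Slc38a3 and Slc38a4 in liver and Slc43a3 and Slc3a2 in lung.

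To test these patterns, each of 6 tissue classes (the mean of the 4 muscles, heart, kidney, liver, lung and spleen) was set against the mean of the other 5, in WT and in KO mice separately. A gene was called when its difference was at least 4-fold with an adjusted p under 0.05 in edgeR's quasi-likelihood test over all genes. In WT mice 39 of the 44 genes had enough reads to be tested. Liver differed in the most of them, with 5 higher and 12 lower, against 28.5% of all genes called. Kidney had 10 higher and 3 lower (17.0% of all genes), and lung had 10 higher and 4 lower (17.9%). Muscle had 5 higher and 7 lower (21.4%), spleen 6 higher and 5 lower (23.7%), and heart 4 higher and 3 lower (13.9%). The called shares of the tested members were 43.6% in liver, 35.9% in lung, 33.3% in kidney, 30.8% in muscle, 28.2% in spleen and 17.9% in heart. The order against all genes depended on the minimum fold. On the adjusted p alone, 35 of the 39 members were called in muscle (84.4% of all genes), 26 in heart (71.4%), 30 in kidney (72.4%), 32 in liver (79.4%), 33 in lung (78.2%) and 29 in spleen (78.7%). The shares of the members, 66.7% in heart and 74.4% in spleen, were then below those of all genes. Members such as Slc7a13 passed the filter on low counts through kidney alone and so had to differ there.

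The same contrasts in KO mice, with 38 of the 44 genes tested, gave close counts. Liver had 5 higher and 13 lower (28.8% of all genes called), kidney 9 and 2 (16.8%), lung 9 and 4 (17.7%), muscle 5 and 8 (21.2%), spleen 5 and 6 (23.1%), and heart 4 and 3 (13.4%). The median difference of the tested carriers lay furthest from 0 in WT liver, at -1.03 on the log2 scale against -0.23 over all genes, and was -0.39 against -0.16 in muscle. In the other 4 classes it lay between -0.13 and 0.06. Where a gene had no reads in any WT library of a tissue, as 7 of the 44 had, the fitted difference has no fixed size and only its level is given. A limma fit on log2 CPM with the same minimum fold gave 18 called members in WT liver (25.8% of all genes), 14 in lung (16.4%), 13 in kidney (15.6%), 12 in muscle (18.8%), 10 in spleen (23.6%) and 7 in heart (13.7%). Both fits called 17 members in liver, 13 in lung, 12 in kidney, 12 in muscle, 10 in spleen and 6 in heart. Slc38a3 in WT kidney and Slc38a11 in WT heart were called higher in edgeR alone.

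The 2 heavy chains were highest in different organs. Slc3a1 encodes rBAT, the heavy chain that brings the cystine carrier to the brush border of the proximal tubule. Its level in kidney was 207.7 to 312.2 RPKM with a median of 236.3 over 9 libraries, and its median was 10.66 RPKM in liver and under 0.5 RPKM in each of the other 7 tissues. In WT mice Slc3a1 was higher in kidney by 9.16 ± 0.09 (SE) on the log2 scale (adjusted p = 5.59e-47, edgeR), higher in liver by 4.78 ± 0.11, and lower in muscle, at -5.30 ± 0.24. Slc3a2 encodes CD98hc, the other heavy chain, which pairs with the light chains of most tissues. Its level was highest in lung, at 110 to 135.2 RPKM with a median of 114, followed by medians of 74.61 RPKM in kidney and 69.1 RPKM in spleen. The ranges of kidney, 64.75 to 98.43 RPKM, and spleen, 58.71 to 75.53 RPKM, overlapped. Liver, heart and the muscles stood well below, with medians of 8.749 to 12.04 RPKM. The deposited RPKM of Slc3a2 was 1.05 to 1.61 times the value recomputed from its counts, by library. The size of its gaps between tissues therefore depends on the exon length used. Slc3a2 was thus above 1 RPKM in every tissue, and Slc3a1 only in kidney and liver.

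Among the light chains, 4 were highest in kidney with medians above 20 RPKM. Slc7a13, which encodes the aspartate and glutamate carrier AGT1 of the proximal tubule, stood at 157.5 to 315.9 RPKM there, with a median of 232.8, and at a median of no more than 0.0565 RPKM in any other tissue. It drew 7687 to 13779 reads in each kidney library and at most 4 in any library of another tissue, so that it passed the filter through kidney alone. Slc7a9, the cystine carrier that pairs with rBAT, stood at 42.32 to 68.96 RPKM in kidney with a median of 51.68, and its deposited RPKM was 1.16 times the recomputed value. No read of Slc7a9 fell in any of the 40 muscle libraries, so that its median of 87.65 CPM in kidney was at least 262.6-fold higher than the limit that a count of 0 allows in muscle. Slc7a7, the carrier that exports lysine and arginine on the blood side, had a median of 44.56 RPKM in kidney, 12.96 RPKM in spleen and 9.255 RPKM in lung. Slc7a8, the neutral amino acid exchanger LAT2 of the same membrane, had a median of 27.94 RPKM in kidney and at most 4.313 RPKM elsewhere. Both were called higher in WT kidney, Slc7a7 by 4.22 ± 0.08 and Slc7a8 by 4.03 ± 0.10 on the log2 scale. In kidney the median level of rBAT was near that of AGT1 and well above that of Slc7a9.

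The other light chains differed in where they were highest. Slc7a5, the leucine and tryptophan exchanger LAT1, had its highest levels in spleen, at 9.705 to 16.13 RPKM with a median of 11.33, against 2.731 RPKM in lung and at most 1.455 RPKM elsewhere, a difference of 2.80 ± 0.11 on the log2 scale in WT spleen (adjusted p = 1.96e-25). Slc7a6, an exchanger of basic for neutral amino acids, was spread more evenly, with medians of 8.886 RPKM in spleen, 8.422 in EDL, 7.846 in gastrocnemius and 7.679 in lung, whose ranges overlapped. In WT mice Slc7a6 was higher in muscle by 2.85 ± 0.08 and lower in liver, where its median was 0.06825 RPKM, at -5.40 ± 0.24. Slc7a10, which carries small neutral amino acids including D-serine, passed 1 RPKM only in lung, at 4.863 to 9.11 RPKM, and was higher there by 4.52 ± 0.26. This carrier is also known from fat cells. The adipocyte list summed to 97.9 to 156 RPKM in lung and to 363.3 to 1224 RPKM in soleus, where the median of Slc7a10 was 0.4202 RPKM, and the part of fat cells in these levels was not tested. Slc7a12 was found only in kidney, at 0.5073 to 1.554 CPM, its median being at least 3.0-fold above the limit that a count of 0 allows in the other 8 tissues. Slc7a15 had medians of 0.0827 RPKM in liver and 0.05 RPKM in kidney and of 0 in the other 7 tissues.

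**Figure D2:**
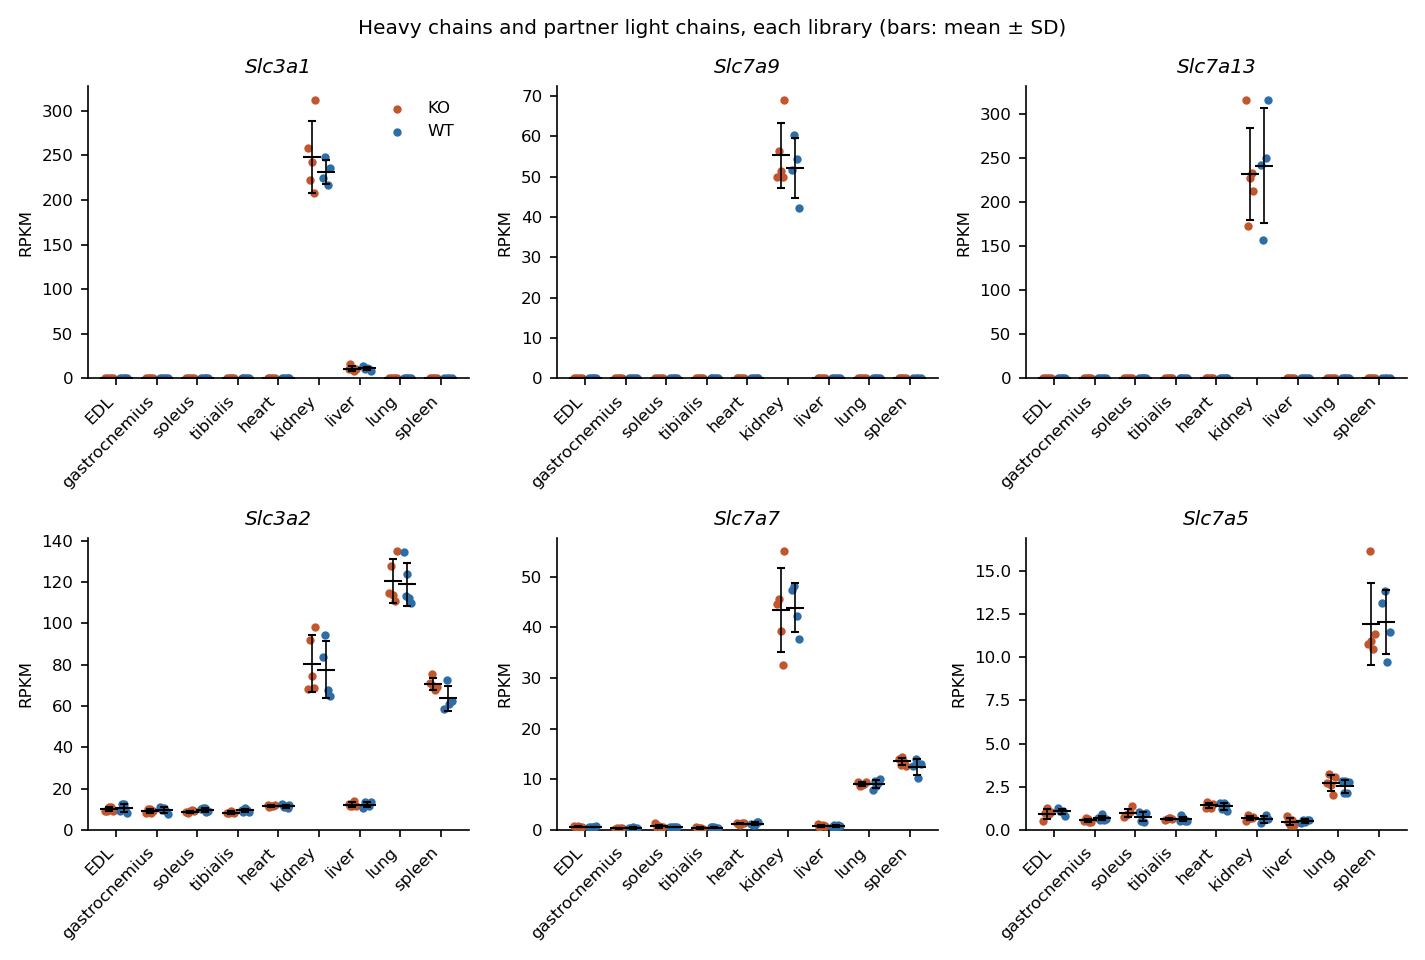
RPKM of Slc3a1, Slc7a9, Slc7a13, Slc3a2, Slc7a7 and Slc7a5 in each library of the 9 tissues, KO and WT side by side, with the mean and SD of each group. The first 3 are highest in kidney, Slc3a2 is present in every tissue and highest in lung, and Slc7a5 is highest in spleen.

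Slc7a11 encodes xCT, which takes up cystine for glutathione synthesis and is a known target of the transcription factor ATF4. Its level was 2.786 to 4.46 RPKM in spleen, with a median of 3.12, and 0.6287 to 2.768 RPKM in lung, with a median of 1.507, and its medians in the other 7 tissues were at most 0.04435 RPKM. It was higher in WT spleen by 5.55 ± 0.25 (adjusted p = 4.26e-23) and in WT lung by 4.06 ± 0.26 on the log2 scale. The macrophage list summed to 1502 to 1827 RPKM in spleen and 4072 to 5481 RPKM in lung, and its part in these levels was not tested.

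ATF4 binds amino acid response elements, and the letters TGATGCAA (reverse complement TTGCATCA) were searched on both strands of the RefSeq promoter windows, which run from 250 bases before to 50 bases after the start (GRCm38.p6, the patch of the build the files use). Windows were found for 33 of the 44 genes. The letters lay in windows of 3 of these genes, Slc1a4, Slc7a7 and Slc7a11 (9.09%), against 279 of all 27025 genes with such a window (1.03%). The wider letters TGATGNAA, which include the first motif, lay in the same share of the 33 genes and in 4.51% of all genes with a window. A match is a match of letters and was not tested as a binding site. The stretches that hold them are shown because these 3 genes share the letters and differ in tissue. Each is given 5′ to 3′ on the strand of its gene, the minus strand in all 3, with the matches in capitals.
Slc7a11, chr3:50443614-50443724: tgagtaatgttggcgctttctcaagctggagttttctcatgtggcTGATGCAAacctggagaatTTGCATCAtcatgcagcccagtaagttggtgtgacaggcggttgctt
Slc1a4, chr11:20332710-20332762: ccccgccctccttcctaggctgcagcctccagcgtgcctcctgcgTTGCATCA
Slc7a7, chr14:54417938-54417990: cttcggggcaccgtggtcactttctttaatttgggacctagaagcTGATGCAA
The window of Slc7a11 held the letters once on each strand, beginning 66 and 47 bases before the start. In Slc1a4 the match began 4 bases before the start, and in Slc7a7 it began 1 base before it, at a RefSeq start that lies upstream of the span the files give the gene. The same letters lie 243 bases before another RefSeq start of Slc7a7. Slc7a11 was highest in spleen, Slc1a4 in lung and Slc7a7 in kidney.

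Of the cationic carriers, which bring arginine, lysine and ornithine into cells, Slc7a2 had its highest medians in liver and muscle and Slc7a1 in spleen and heart. Slc7a2 stood at 59.42 to 106.1 RPKM in liver, with a median of 77.8, at medians of 24.86 RPKM in gastrocnemius, 22.54 in EDL, 17.41 in tibialis and 14.77 in soleus, and below 1 RPKM in heart and kidney. It was also present in lung, at a median of 10.31 RPKM, and in spleen, at 7.804 RPKM. Single soleus libraries ran from 3.297 to 26.51 RPKM and so spanned both of these medians. In WT mice it was higher in liver by 5.05 ± 0.14 and in muscle by 2.80 ± 0.12, and lower in kidney, at -3.94 ± 0.27, and in heart, at -3.22 ± 0.23. Slc7a1, the more widely known of the family, had medians of 8.673 RPKM in spleen and 8.576 RPKM in heart, whose ranges overlapped, and of 0.0996 RPKM in liver. Slc7a1 was not called higher in WT spleen, and heart and spleen were not tested against each other. In WT heart it was higher by 2.87 ± 0.13, and it was lower in WT liver at -4.37 ± 0.26, so that the 2 carriers took opposite directions in both organs. Slc7a4 passed 1 RPKM only in lung, at 4.889 to 6.213 RPKM, and was higher there by 3.55 ± 0.13 and lower in muscle at -4.23 ± 0.20. Slc7a3 reached 0.6874 RPKM and Slc7a14 reached 0.7669 RPKM at most in any library, the latter with a deposited RPKM 1.54 times the recomputed value.

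The Slc1 family takes up acidic and small neutral amino acids with sodium. Slc1a1, the glutamate carrier EAAT3, stood at 60.03 to 80.41 RPKM in kidney with a median of 65.95, then at medians of 8.964 RPKM in lung and 2.134 RPKM in soleus, and at 0 RPKM in liver. It was higher in WT kidney by 7.71 ± 0.14 (adjusted p = 3.51e-37) and in WT lung by 3.24 ± 0.18, and lower in WT liver at -7.30 ± 0.65 and in WT spleen at -5.38 ± 0.97. No liver library held more than 2 reads of Slc1a1, and the liver difference was -9.75 without mouse 3793553. The spleen call was lost without the same mouse (adjusted p = 1.0, edgeR). Slc1a2, the glutamate carrier GLT-1 that is known from astrocytes and from liver cells near the central vein, had its highest level in liver, at 20.96 to 27.81 RPKM. In WT liver it was higher by 6.36 ± 0.10 (adjusted p = 2.41e-39). The deposited RPKM of Slc1a2 was 1.9 times the value recomputed from its counts in the median library, so its rank among the genes depends on the length used. Slc1a3, the glutamate carrier GLAST, had medians of 10.79 RPKM in lung and 5.04 RPKM in spleen and was called higher in both, although the limma difference in spleen, 1.97 on the log2 scale, was under 4-fold.

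The neutral members of Slc1 divided between organs. Slc1a5, the glutamine exchanger ASCT2, was at 33.58 to 76.54 RPKM in spleen and 60.12 to 70.11 RPKM in lung, ranges that overlapped, and at 0.6478 RPKM in the median liver library. It was higher in WT spleen by 2.23 ± 0.13 and in WT lung by 2.09 ± 0.12 and lower in WT liver at -4.21 ± 0.22. Slc1a4, the serine and alanine carrier ASCT1, had medians of 8.799 RPKM in lung and 4.395 RPKM in kidney and was called higher in both, by 2.72 ± 0.09 and 2.52 ± 0.09. Slc1a6 and Slc1a7, carriers known from the cerebellum and the retina, reached 0.1729 and 0.2824 RPKM at most.

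In liver the 2 largest levels were those of Slc38 carriers. Slc38a4, a carrier of small neutral and basic amino acids, was at 264.6 to 347.9 RPKM, with a median of 312.1, and Slc38a3, the glutamine carrier SNAT3, at 259.9 to 321.6 RPKM with a median of 291. Their ranges overlapped. Slc38a4 came next in gastrocnemius, with a median of 53.55 RPKM, then in EDL, tibialis and soleus at 26.33, 25.86 and 21.86 RPKM, and was at 0.0923 RPKM in spleen. It was higher in WT liver by 7.94 ± 0.10 (adjusted p = 9.98e-44) and in WT muscle by 4.23 ± 0.08, and lower in WT kidney at -3.86 ± 0.21 and in WT spleen at -7.45 ± 0.25. Slc38a3 came next in soleus at 45.99 RPKM and EDL at 42.82 RPKM, and its medians were 33.15 RPKM in tibialis, 23.31 in heart, 22.5 in kidney and 20.99 in gastrocnemius. In lung its median was 0.05685 RPKM, and none of the 4 WT spleen libraries held a read of it.

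The other Slc38 carriers lay elsewhere or were even. Slc38a1, a sodium-driven glutamine carrier, was at 23.43 to 33.13 RPKM in spleen and was higher there by 4.36 ± 0.11, while its median in liver was 0.1103 RPKM. Slc38a2, the widespread carrier of alanine and glutamine, was the most even of the 3 sodium-driven carriers of its type, with medians from 18.7 RPKM in kidney to 46.58 RPKM in tibialis, and was called in no class contrast in WT mice. Slc38a5, related to Slc38a3, was found in lung at 6.068 to 11.19 RPKM and in spleen at 0.8127 to 4.629 RPKM, and no read of it fell in any EDL library, so that its median of 13.84 CPM in lung was at least 82.49-fold higher than the limit there. Slc38a9, the arginine sensor of the lysosome, had a median of 9.631 RPKM in spleen and of 1.218 to 3.482 RPKM elsewhere. Slc38a10 was highest in kidney, at 40.7 RPKM, and lowest in gastrocnemius, at 5.756 RPKM, although its deposited RPKM was 0.42 times the value recomputed from its counts. Slc38a7 ranged between medians of 2.044 and 6.442 RPKM and Slc38a6 between 0.6467 and 6.133 RPKM, while Slc38a8 and Slc38a11 had no median at 1 RPKM.

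In the Slc36 family, Slc36a1 and Slc36a2 move glycine, alanine and proline with protons. Slc36a1, found on lysosomes, had a median of 11.78 RPKM in kidney and 1.345 to 6.517 RPKM elsewhere. Slc36a2 was high in lung, at 8.484 to 13.36 RPKM, and in heart, at 6.95 to 9.423 RPKM, ranges that overlapped, and was higher in WT heart by 3.30 ± 0.15 and in WT lung by 2.40 ± 0.16 and lower in WT liver at -6.68 ± 0.40. Liver libraries held at most 3 reads of Slc36a2, and this difference was -8.04 without mouse 3817948. Slc36a4 had a median of 8.559 RPKM in lung, and Slc36a3 was at a median of 0.2678 RPKM in spleen and of 0 elsewhere. These genes are neighbours on chromosome 11 of mm10. Slc36a3 (55124823 to 55151706) lies 6.8 kb from Slc36a2 (55158468 to 55185077), and Slc36a1os (55191719 to 55197682) lies between Slc36a2 and Slc36a1 (55204340 to 55236330), at 6.6 and 6.7 kb from them. Despite this, by median RPKM they were highest in 3 different tissues: Slc36a3 and Slc36a1os in spleen, Slc36a2 in lung and Slc36a1 in kidney. The fitted difference of Slc36a2 was larger in heart than in lung, and Slc36a3 had only 3 to 9 reads per spleen library. Slc36a1os had a median of 1.414 RPKM in spleen and under 1 RPKM elsewhere. The other gene named for the opposite strand, Slc7a6os, lies 1.7 kb from Slc7a6 on chromosome 8 without overlap and had medians from 4.243 RPKM in gastrocnemius to 24.07 RPKM in spleen.

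Of Slc43, the facilitative leucine carrier Slc43a1 was, by median RPKM, the one gene of the 44 above 1 RPKM whose highest class was skeletal muscle. In the tests above, Slc7a6 was also called higher in muscle and was not called higher in spleen, so this ranking holds for RPKM alone. Its medians were 44.15 RPKM in gastrocnemius, 35.5 in EDL, 20.04 in soleus and 18.48 in tibialis, against 6.446 RPKM in spleen and at most 1.584 RPKM elsewhere, and it was higher in WT muscle by 4.92 ± 0.16 (adjusted p = 1.32e-26). Slc43a2, the related carrier LAT4, was highest in kidney at 26.65 RPKM and in lung at 22.54 RPKM. Slc43a3, the purine nucleobase carrier, was at 167.9 to 220.1 RPKM in lung with a median of 189.4, followed by 32.94 RPKM in heart, and was higher in WT lung by 2.44 ± 0.06. Slc43a1 and Slc43a3 lie 73.1 kb apart on chromosome 2. Slc7a7 and Slc7a8, which are 312.7 kb apart on chromosome 14, were both highest in kidney.

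The carriers were then compared between the 4 muscles of one genotype, each muscle against the mean of the other 3. Soleus is a muscle with many slow oxidative fibres, and EDL, gastrocnemius and tibialis consist mostly of fast ones. As given above, most soleus libraries here also held much Myh4. In WT mice 30 of the 44 genes were tested, and 5 were called in soleus, all higher, against 20.5% of all genes. In gastrocnemius 12 were called, 5 higher and 7 lower (25.8% of all genes), in EDL 4 (10.5%) and in tibialis 4 (13.1%). With the mouse as a replicate block, since the muscles came from the same animals, 7 were called in EDL (17.0% of all genes) and 8 in tibialis (21.7%). Counts fell when a mouse was left out: WT soleus to 3 without mouse 3793543 (11.4% of all genes), 3793553 (17.3%) or 3805657 (14.1%), WT EDL to 2 without mouse 3793543 (5.53%) or 3793553 (5.08%), and WT gastrocnemius to 7 without mouse 3805673 (19.9%) or 3817948 (18.5%).

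Slc1a1 had the smallest adjusted p of the 5 in soleus. Its level in the 5 WT soleus libraries was 3.705, 2.097, 2.049, 1.605 and 1.431 RPKM, in gastrocnemius 0.7333, 0.4941, 0.5266, 0.5331 and 0.5433 RPKM, and in EDL and tibialis 0.7515 to 1.652 RPKM. The soleus libraries lay above all gastrocnemius libraries and overlapped those of EDL and tibialis. The difference was 1.11 ± 0.18 on the log2 scale (adjusted p = 0.000123). Slc38a1 had 0.7953, 0.4406, 0.6253, 0.3372 and 0.4551 RPKM in WT soleus, against 0.1084 to 0.4728 RPKM in the other 3 muscles, and was higher by 1.23 ± 0.25 (adjusted p = 0.00107). Slc43a2 had 9.893, 4.256, 10.13, 5.207 and 4.817 RPKM in WT soleus and 2.273 to 6.254 RPKM in the others, a difference of 0.94 ± 0.22 (adjusted p = 0.00458). Slc1a4 and Slc38a3 were higher by 0.73 ± 0.21 and 0.37 ± 0.11, and neither passed without mouse 3793543, 3793553 or 3805657 (adjusted p 0.0777 to 0.114 for Slc1a4 and 0.075 to 0.122 for Slc38a3). None of the 5 was at its highest tissue level in soleus. The slow fibre list summed to 4256 to 8033 RPKM in WT soleus and 85.18 to 264.9 RPKM in WT EDL, and its part in these differences was not tested.

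In gastrocnemius the 2 smallest adjusted p belonged to Slc38a3 and Slc38a4. Slc38a4 was at 59.59, 50.73, 60.75, 44.77 and 53.91 RPKM in WT gastrocnemius and at 20.88 to 45.24 RPKM in the other 3 WT muscles, with an overlap of 1 soleus library, and was higher by 0.93 ± 0.12 (adjusted p = 2.7e-05). Slc38a3 ran the other way, at 22.39, 18.4, 19.46, 16.97 and 22.14 RPKM in WT gastrocnemius and 29.39 to 57.34 RPKM in the others, with no overlap, and was lower at -0.92 ± 0.12 (adjusted p = 2.24e-05). The sodium-driven carrier Slc38a2 was lower in gastrocnemius at -0.37 ± 0.07 and higher in tibialis by 0.42 ± 0.07. Slc43a1 was higher in gastrocnemius by 0.75 ± 0.24, with 51.68, 44.72, 56.62, 26.63 and 29.08 RPKM there, and its WT EDL libraries ran from 12.33 to 50.92 RPKM. This call was lost without any 1 of the mice 3793543, 3793553, 3805657 and 3805673 (adjusted p 0.0501 to 0.174). In EDL, Slc38a3, Slc38a9 and Slc7a5 were higher, by 0.48 ± 0.11, 0.26 ± 0.07 and 0.60 ± 0.16, and Slc36a1 was lower at -0.33 ± 0.07. Slc38a9 did not pass without mouse 3793543, 3793553 or 3805657 (adjusted p 0.074 to 0.106), nor Slc7a5 without mouse 3793543, 3793553 or 3805673 (0.0589 to 0.0857). In tibialis Slc43a3 was higher by 0.42 ± 0.10, and Slc36a2 and Slc38a4 were lower at -1.47 ± 0.29 and -0.53 ± 0.13. Slc43a3 did not pass without mouse 3805657 (adjusted p = 0.0657, edgeR), nor Slc38a4 without mouse 3817948 (adjusted p = 0.0597, edgeR).

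In KO mice 14 of the carriers were called in soleus, 8 higher and 6 lower (53.6% of all genes), 16 in gastrocnemius, 6 higher and 10 lower (44.4%), 6 in EDL (11.6%) and 3 in tibialis (17.6%). With the mouse as a replicate block, 6 were called in KO tibialis (21.8% of all genes), and DESeq2 gave 6 there too (18.4%). Without mouse 3805666 the counts were 14 in soleus (43.2% of all genes), 13 in gastrocnemius (38.1%), 5 in EDL (8.69%) and 2 in tibialis (12.7%). Without mouse 3793546 there were 3 in EDL (7.38%) and 1 in tibialis (12.7%). The tibialis count was 1 without mouse 3805676 (9.17%), 0 without mouse 3817943 (8.27%) and 5 without mouse 3779417 (17.4%). The 5 genes called in WT soleus were all called higher in KO soleus too, Slc38a1 by 2.07 ± 0.17, Slc1a1 by 1.47 ± 0.18, Slc43a2 by 1.39 ± 0.11, Slc1a4 by 1.06 ± 0.19 and Slc38a3 by 0.49 ± 0.07. Slc38a4, at -0.95 ± 0.17, and Slc43a1, at -1.05 ± 0.28, were called lower in KO soleus and not in WT soleus, and only the interaction test, given with the genotypes, bears on whether the 2 differ.

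**Figure D3:**
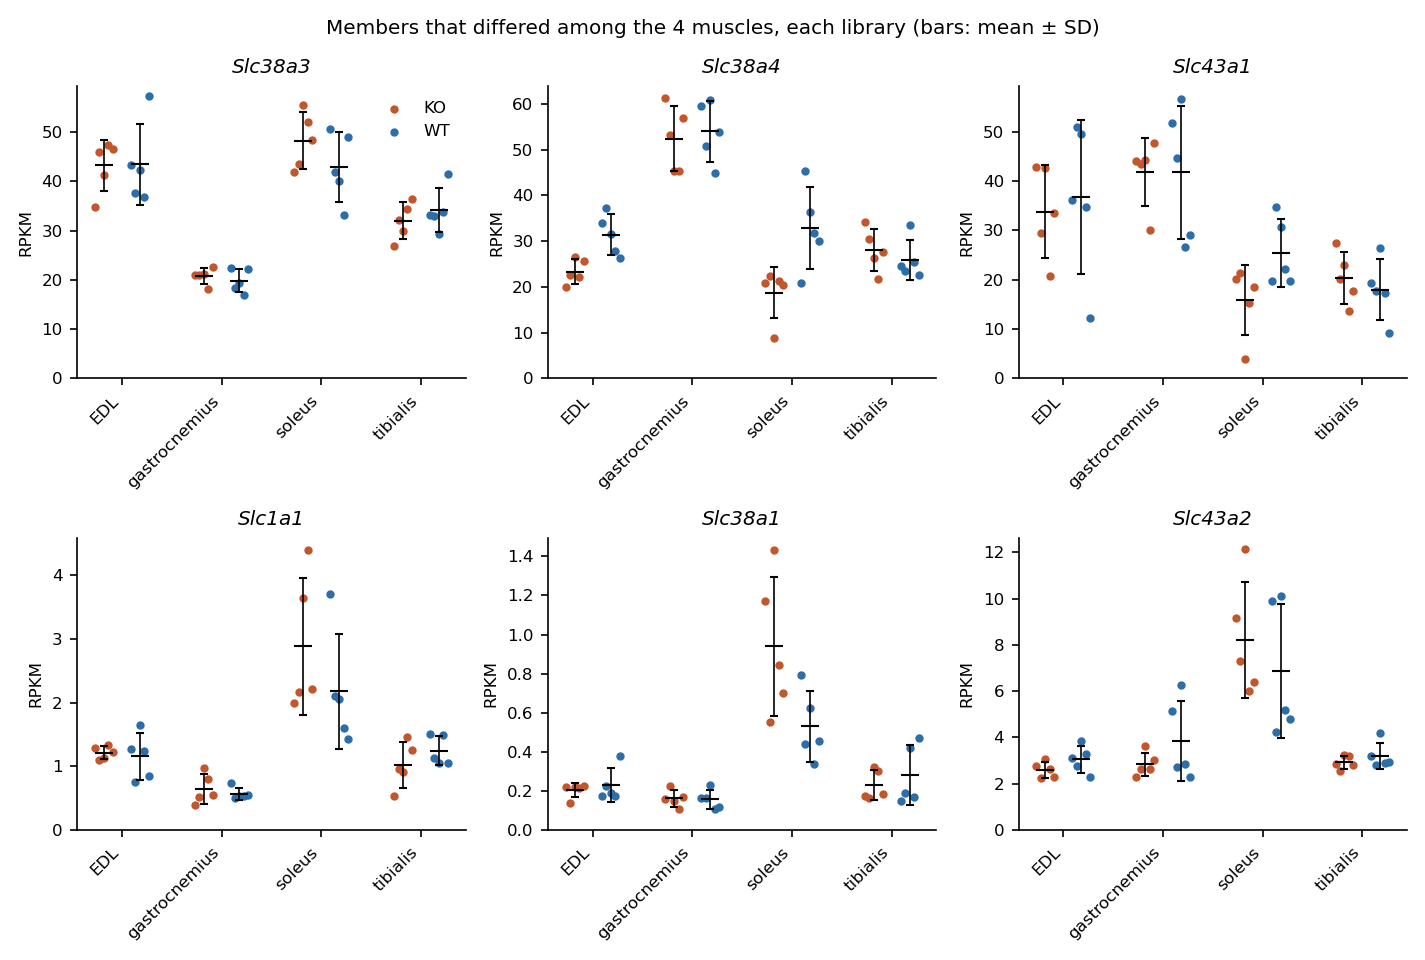
RPKM of Slc38a3, Slc38a4, Slc43a1, Slc1a1, Slc38a1 and Slc43a2 in each library of the 4 muscles, KO and WT side by side, with the mean and SD of each group. Slc38a3 is lowest and Slc38a4 highest in gastrocnemius, Slc1a1, Slc38a1 and Slc43a2 are highest in soleus, and 1 KO soleus library lies below the others for Slc38a4, at 8.824 RPKM, and Slc43a1, at 4.01 RPKM.

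Other genes of amino acid handling were read from fixed lists in the same WT soleus contrast, where 20.5% of all genes were called and their median was -0.002 on the log2 scale. Of 30 tested genes of amino acid breakdown and the urea cycle, 11 were higher and 1 was lower, with a median of 0.131. Among them were Gpt, alanine aminotransferase, by 0.62 ± 0.08, and Ppm1k, the phosphatase that activates branched-chain keto acid oxidation, by 0.84 ± 0.11. Of 18 carriers of other families, 4 were higher and 1 was lower, including the mitochondrial carriers Slc25a13 by 1.90 ± 0.29 and Slc25a22 by 1.26 ± 0.09. Of 34 genes of amino acid sensing by mTORC1, the kinase complex that senses amino acids at the lysosome, 3 were higher and 2 lower, of 23 genes of the stress response through ATF4, 2 and 1, of 14 genes of glutathione synthesis, 2 and 0, and of 8 trafficking partners of carriers, 0 and 2, namely Nedd4l at -0.39 ± 0.08 and Bsg at -0.27 ± 0.07. The calls in the sensing, ATF4 and glutathione lists, 5 of 34, 3 of 23 and 2 of 14, lay below the share of all genes.

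Between KO and WT mice no carrier passed the threshold in any of the 9 tissues. Of the 44, the genes tested were 37 in kidney, 35 in lung, 31 each in heart and spleen, 30 each in EDL and soleus, 28 in gastrocnemius and 27 each in tibialis and liver. Few genes of any kind passed, namely 0.0081% of all genes in tibialis, 0.00792% in gastrocnemius, 0.00777% in EDL and 0.00771% in soleus, which is 1 gene in each, Cdh15, and 0.0% in each of heart, kidney, liver, lung and spleen. At an unadjusted p under 0.05 in edgeR, 5 of 30 carriers were counted in soleus (17.2% of all genes), 2 of 30 in EDL (4.58%), 3 of 37 in kidney (3.35%), and 1 each in tibialis (1.77%), liver (1.57%) and lung (2.06%). In gastrocnemius (1.95%), heart (3.13%) and spleen (0.846%) there were 0. DESeq2 called 1 carrier in soleus, Slc38a4, against 1.27% of all genes. It called 0 in the other 8 tissues, where the share of all genes was 0.0311% in EDL, 0.028% in kidney, 0.0158% in gastrocnemius, 0.0081% in tibialis and 0.0% in heart, liver, lung and spleen. The median SE of a carrier's log2 difference was 0.226 in soleus and 0.082 to 0.184 in the other tissues, which limits what could be detected.

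Slc38a4 had the smallest p of the carriers in soleus. Its levels in the 5 KO soleus libraries were 20.87, 22.38, 8.824, 21.33 and 20.43 RPKM, and in the 5 WT libraries 20.88, 45.24, 36.39, 31.82 and 30.07 RPKM. The lowest WT library lay within the KO range and the other 4 above it. The difference was -0.85 ± 0.27 on the log2 scale, with an adjusted p of 0.238 in edgeR, so that it did not pass. DESeq2 gave -0.86 with an adjusted p of 0.0312, and the edgeR value without the KO library of mouse 3805666 was -0.67 with an adjusted p of 0.363. In the same libraries the summed level of the slow fibre list was 6941 to 20680 RPKM in KO and 4256 to 8033 RPKM in WT soleus, and that of the fast fibre list 24840 to 48260 RPKM in KO and 42390 to 60410 RPKM in WT, and their part in this difference was not tested. In EDL, Slc38a4 was at 19.92, 22.55, 26.45, 22.15 and 25.69 RPKM in KO and 34.05, 37.3, 31.54, 27.88 and 26.2 RPKM in WT, a difference of -0.44 ± 0.11 with an adjusted p of 0.986. In gastrocnemius it was at 45.28 to 61.25 RPKM in KO and 44.77 to 60.75 RPKM in WT, and in tibialis at 21.72 to 34.2 and 22.61 to 33.56 RPKM, ranges that overlapped.

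Whether the soleus differed from the other 3 muscles in its KO-WT difference was tested over 32 carriers, and 0 passed, as did 0.0% of all genes. At an unadjusted p under 0.05 there were 4 of the 32, against 16.4% of all genes. Slc38a4 had the smallest p, with -0.74 ± 0.21 on the log2 scale and an adjusted p of 0.0952. With the mouse as a replicate block it was -0.76 with an adjusted p of 0.0397 (4.37% of all genes passed), and in DESeq2 -0.74 with 0.0235 (2.45%). It passed without the WT mouse 3793543 (adjusted p = 0.0314, edgeR; 2.82% of all genes) or the KO mouse 3793546 (0.0493; 2.48%), and without mouse 3805666 it was -0.57 with an adjusted p of 0.34.

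Among the remaining carriers the heavy chain Slc3a2 was at 8.573, 8.076, 8.973, 9.438 and 9.12 RPKM in KO soleus and 10.04, 10.45, 10.62, 8.753 and 8.959 RPKM in WT soleus, a difference of -0.21 ± 0.07 (adjusted p = 0.238). Slc38a11 was the one carrier of 30 whose groups did not overlap in soleus (3.09% of all genes), at 0.4996 to 0.7629 RPKM in KO and 0.1818 to 0.4578 RPKM in WT, below 1 RPKM throughout. In kidney Slc7a12 and Slc7a3, 2 of 37, did not overlap between KO and WT (1.16% of all genes). Slc7a12 was at 0.2961 to 0.6371 RPKM in KO and 0.712 to 0.9063 RPKM in WT, and Slc7a3 at 0.1885 to 0.3028 RPKM in KO and 0.0584 to 0.1608 RPKM in WT. Both are near the limit of detection, and their adjusted p was 1.0. Of the abundant carriers, Slc3a1 in kidney stood at 248.6 ± 40.4 RPKM in KO (SD, n = 5) and 231.4 ± 13.6 RPKM in WT (SD, n = 4), with a log2 difference of 0.06 ± 0.10. Slc38a4 in liver stood at 315 ± 33.4 RPKM in KO and 309 ± 17.8 RPKM in WT, and Slc38a3 in liver at 294.7 ± 22.4 and 283.2 ± 21.1 RPKM (SD, n = 5 each). No gene of the 6 lists of amino acid handling passed between KO and WT in any tissue or in the interaction in edgeR, the one tool run on the lists. In soleus an unadjusted p under 0.05 was found for 7 of 28 genes of breakdown and urea synthesis, 6 of 14 of glutathione synthesis, 5 of 23 of the ATF4 response, 5 of 19 other carriers, 4 of 34 of mTORC1 sensing and 2 of 8 trafficking partners, against 17.2% of all genes.

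**Figure D4:**
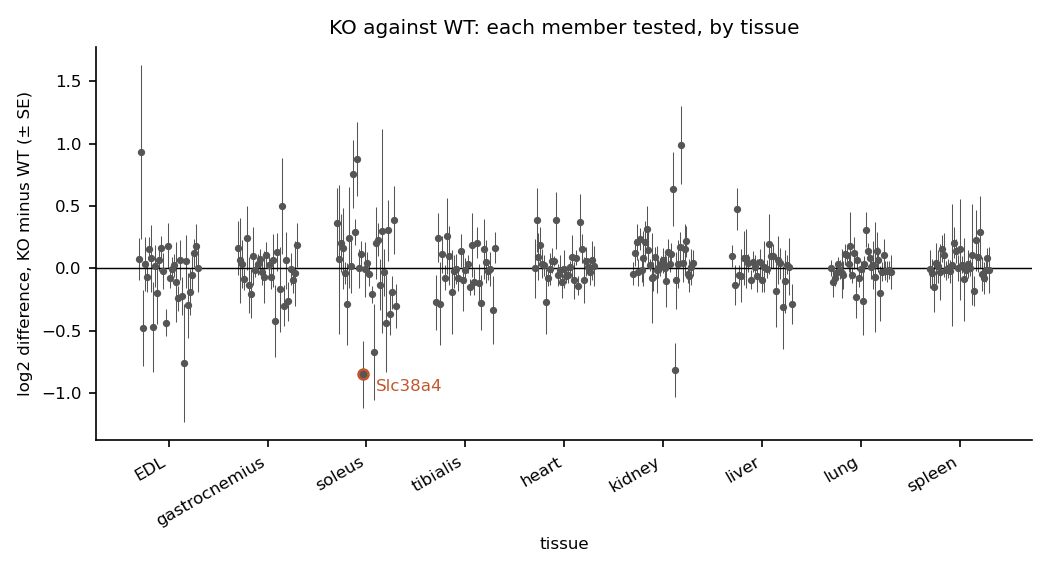
KO minus WT log2 difference with its SE for each carrier tested in each of the 9 tissues, with Slc38a4 in soleus marked. The points lie on both sides of 0 in every tissue, the median lies between -0.016 and 0.036, and Slc38a4 in soleus lies at -0.85.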

How the data were processed

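Libraries were made from poly(A) RNA with a stranded kit, per the labels' protocols. The build is mm10 per the submitters' processing notes, and the sources used here give no aligner, counting tool or use of strand. The authors deposited expected counts per gene, 85.54% of them whole numbers, and RPKM, which were used for levels only. For 5 of 36 members compared, the deposited RPKM differed by more than 5% from the value recomputed from the counts, in the median library 1.9 times for Slc1a2, 1.54 for Slc7a14, 1.16 for Slc7a9, 1.08 for Slc3a2 and 0.42 for Slc38a10. The 22 marker sequences in the table, at most 0.0323% of a library, were left out.

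Expected counts were rounded and fitted with edgeR 4.0.16 (R 4.3.3; quasi-likelihood F test, TMM, filterByExpr with a minimum count of 10 and total of 15), with Benjamini-Hochberg adjustment over all tested genes and a threshold of 0.05. KO and WT were fitted per tissue; tissue classes and muscles within a genotype, over all its libraries. The SE is the log2 difference divided by the root of F. Alternatives were DESeq2 1.42.0, its size factors, limma 3.58.1, no filter, age as a covariate, each mouse left out in turn, and the mouse as a replicate block. The fits were also run on simulated counts with known changes. These were drawn independently for each library, with the same spread for every gene and no effect of the mouse. They therefore do not bear on libraries that share mice.

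The mouse is the replicate, and tissues of a genotype share mice by the labels. Except with the block, the class, muscle and interaction fits took libraries of the same mouse as independent. Their SE and p rest on this. The deviations of muscles of the same mouse correlated at 0.28 on average in WT (26 of 30 pairs above 0.1) and 0.196 in KO (24 of 30), over 11684 genes. No 2 replicates were copies: the smallest chi-square per gene over 172 pairs was 5.051. A WT kidney and a WT spleen library are not analysed here.

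The members and lists were chosen with earlier results of these data known. Named genes are the 3 highest in each tissue, the 3 called members of largest difference each way per class, up to 4 each way in soleus, the 2 of smallest p between KO and WT, both heavy chains and, from each list, the 2 of smallest p in soleus. The others named, to account for every member, were chosen after their values were seen.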

Additional observations from a re-analysis of the deposited data

Results flagged for a closer look

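In 44 pairs of a member and a tissue, each of the 88 groups was checked for a library far from the others of its group. Chance flags about 1 in 20 such groups, and 5 were found.

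Slc38a4 in the KO soleus library of mouse 3805666 was at 8.824 RPKM, against 20.43 to 22.38 RPKM in the other 4 KO soleus libraries. This is also the library with almost no Myh4. Slc38a4 in the WT tibialis library of mouse 3805657 was at 33.56 RPKM, above the 22.61 to 25.34 RPKM of the other 4. Slc43a1 in the KO gastrocnemius library of mouse 3805676 was at 29.99 RPKM, below the 43.38 to 47.76 RPKM of the other 4. Slc7a5 in the WT gastrocnemius library of mouse 3805657 was at 0.9014 RPKM, above 0.5867 to 0.6742 RPKM. Slc7a14 in the KO heart library of mouse 3805676 was at 0.1189 RPKM, below 0.3626 to 0.4571 RPKM.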

How the results depend on the processing

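Of 79 named member differences, 75 kept their direction and side of the threshold under every alternative run on them other than leaving out a mouse, 60 also when each mouse was left out, and 0 reversed. DESeq2's size factors, no filter and leaving out a mouse were run on all 79, DESeq2 on 78, the block on 61, limma on 35 and age as a covariate on 18. With the mouse as a replicate block, the count of called carriers was 7 in WT EDL (17.0% of all genes), 8 in WT tibialis (21.7%), 6 in KO tibialis (21.8%) and 1 in the interaction, Slc38a4 (4.37%), and the block moved no other count of calls by over 1.5 times. DESeq2 gave 6 in KO tibialis (18.4%), 1 for KO against WT in soleus (1.27%) and 1 in the interaction (2.45%). On the adjusted p alone, with no minimum fold, the WT class counts were 35 in muscle (84.4% of all genes), 26 in heart (71.4%), 30 in kidney (72.4%), 32 in liver (79.4%), 33 in lung (78.2%) and 29 in spleen (78.7%). Leaving out each mouse in turn gave 3 to 5 in KO EDL (7.38% to 8.69% of all genes), 2 to 5 in WT EDL (5.08% to 8.97%), 7 to 8 in WT gastrocnemius (16.3% to 23.3%), 3 to 6 in WT soleus (11.4% to 18.6%), 0 to 5 in KO tibialis (8.27% to 17.4%) and 0 to 1 in the interaction (0.0% to 2.82%). For Slc38a4 in KO against WT soleus these fits gave -0.99 to -0.67 on the log2 scale (adjusted p 0.132 to 0.433), and in the interaction -0.87 to -0.57 (adjusted p 0.0314 to 0.34). The limma fit and the count of each muscle in KO mice were chosen after seeing the data. Depth limits genes near 0 reads: at 0 to 3 reads per liver library, the Slc1a1 and Slc36a2 differences moved from -7.30 to -9.75 and from -6.68 to -8.04 when 1 mouse was left out.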
